A study of Mus musculus with 20 samples.

Results

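The 37 genes described here encode the glucose transporter and enzymes of glycolysis, regulators of phosphofructokinase, the hypoxia-inducible factors (HIFs) and genes that HIFs are known to induce. They were chosen as a list of gene symbols, and 37 of 37 were found among the 24047 rows of the count table. Tigar was found under its older symbol 9630033F20Rik. A filter on low counts kept 13476 genes and 35 of the 37. The exceptions were Eno1 and Eno2.

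Expression with and without p53 was examined by mRNA sequencing of 8 mouse gastric organoid lines, which are epithelial cultures derived from stomach, in 20 libraries. All lines were BL/6 and were kept in conditioned medium. The p53 knockout (KO) lines were 794 and 801, both dysplastic (3 libraries each), and 650 and 1270, both non-dysplastic (2 libraries each). The knockout had been made in vivo in all of these but line 1270, where it was made ex vivo. Among the wild-type (WT) lines, 565 and 752 were dysplastic (3 libraries each), and 300 and 1269 were non-dysplastic (2 libraries each). The sources used here give neither ages nor the Cre driver or other means of the KO, and do not tie lines to animals. The p-values therefore measure how these lines spread, and that spread may be technical. The series title speaks of p53 KO and KD, while each library label says WT or KO. Levels are given as CPM, which are counts relative to the TMM-scaled total of a line (its libraries summed) or of a library.

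Glycolysis splits glucose into pyruvate in the cytosol, and lactate dehydrogenase turns pyruvate into lactate, which leaves the cell through monocarboxylate transporters. When oxygen is low, prolyl hydroxylases no longer mark the HIF alpha subunits for degradation, and HIFs then bind the core motif ACGTG or GCGTG near genes for glucose uptake, glycolysis, pH control, mitophagy and angiogenesis. HIF alpha subunits are controlled largely at the protein level, so their mRNA does not report their activity. The tumour suppressor p53 induces TIGAR, which lowers fructose 2,6-bisphosphate and so slows phosphofructokinase.

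Promoter sequences are shown for the 4 members that differed most between the libraries of line 1270, described below, and for Ldhb, the member that differed least there. They come from RefSeq (build GRCm38.p6) and cover the 250 bases before an annotated start, 5′ to 3′ along the gene. Capitals mark ACGTG or its reverse complement CACGT.
Slc16a3 (chr11:120948817-120949066, plus strand): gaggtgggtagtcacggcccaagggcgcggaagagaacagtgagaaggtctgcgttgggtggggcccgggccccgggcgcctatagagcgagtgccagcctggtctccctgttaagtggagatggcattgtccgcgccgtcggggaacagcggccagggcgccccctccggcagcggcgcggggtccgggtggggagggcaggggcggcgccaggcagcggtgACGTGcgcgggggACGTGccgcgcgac
P4ha1 (chr10:59323046-59323295, plus strand): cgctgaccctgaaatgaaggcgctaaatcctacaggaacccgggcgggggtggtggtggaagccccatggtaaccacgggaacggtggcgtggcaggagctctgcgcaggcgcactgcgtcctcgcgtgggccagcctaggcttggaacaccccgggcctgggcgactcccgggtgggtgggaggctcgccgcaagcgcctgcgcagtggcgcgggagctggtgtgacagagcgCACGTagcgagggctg
Bnip3 (chr7:138909507-138909756, minus strand): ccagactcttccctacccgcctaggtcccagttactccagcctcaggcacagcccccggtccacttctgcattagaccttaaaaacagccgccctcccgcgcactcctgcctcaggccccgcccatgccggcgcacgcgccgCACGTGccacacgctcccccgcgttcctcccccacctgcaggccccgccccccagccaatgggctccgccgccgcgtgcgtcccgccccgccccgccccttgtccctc
Ankrd37 (chr8:45999851-46000100, minus strand): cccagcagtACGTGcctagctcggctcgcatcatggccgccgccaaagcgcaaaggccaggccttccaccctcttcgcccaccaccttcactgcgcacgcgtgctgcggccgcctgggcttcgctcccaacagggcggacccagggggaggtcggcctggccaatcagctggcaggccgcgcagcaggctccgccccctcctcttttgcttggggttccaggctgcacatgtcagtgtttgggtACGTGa
Ldhb (chr6:142507958-142508207, minus strand): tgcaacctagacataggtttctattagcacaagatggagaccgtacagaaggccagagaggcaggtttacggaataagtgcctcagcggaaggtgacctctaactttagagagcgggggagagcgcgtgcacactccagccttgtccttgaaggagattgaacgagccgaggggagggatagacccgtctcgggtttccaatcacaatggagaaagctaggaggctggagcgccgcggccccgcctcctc
The Slc16a3 promoter held ACGTG 14 and 27 bases before the start, P4ha1 held CACGT 16 bases before it, and Ankrd37 held ACGTG 6 and 241 bases before it. In Bnip3 the overlapping matches on both strands form CACGTG, at 108 bases before the start. No ACGTG was found in the Ldhb window, which holds the other core motif, GCGTG, once. Hif1a and Pfkm, which were not lower in library 1270-1 than in 1270-2, each have a promoter window that holds ACGTG 3 times. The first 25 bases after the start lay in the longest CCDS transcript for all of these except Slc16a3, whose start shown is another annotated one.

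Over windows of 300 bases (250 before to 50 after the start), ACGTG on either strand was present for 22 of the 34 members with a promoter in the RefSeq table (64.7%), against 21.8% of all 27025 genes. The motif GCGTG was present for 21 of the 34 (61.8%), against 35.2% of all genes. Epas1, Bnip3l and Ndrg1 have no promoter in that table. Many members are on the list because they are known HIF targets, so this is a description of the list.

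Library totals ran from 5669521 counts in library 801-3 to 16323270 counts in library 1270-2. Trp53 stood at 26.9, 4.99, 6.92 and 22.2 CPM in KO lines 650, 1270, 794 and 801, against 112, 161, 154 and 122 CPM in WT lines 300, 1269, 565 and 752. Its log2 fold change was -3.17 ± 0.60 (SE), below every WT line in every KO line, with an adjusted p of 0.74. The summed level of 6 epithelial markers lay between 10900 and 14300 CPM in KO lines and between 13500 and 14600 CPM in WT lines, and the 3 erythroid markers were at 0. Of the fibroblast list (9 markers) the sums were 8.52 to 42.7 CPM in KO and 7.47 to 9.85 CPM in WT lines. Of the immune list (6 of 7 markers in the table) they were 9.52 to 33 CPM in KO and 19.5 to 52.6 CPM in WT lines. Of the 10 gastric markers they were 388 to 5510 CPM in KO and 247 to 2050 CPM in WT lines, with Atp4b, a subunit of the parietal-cell proton pump, at 0. Xist lay at 0.381 to 1.02 CPM in the libraries of lines 650 and 300 and at 256 to 1710 CPM in all others, so all dysplastic lines were female and the part of sex in comparisons by dysplasia was not tested. The ex vivo KO line 1270 had Xist and the in vivo KO line 650 lacked it, so sex and the ex vivo knockout cannot be told apart in the comparison of these lines. In bulk samples, fewer cells of a type and less RNA per cell cannot be told apart.

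No member passed an adjusted p of 0.05 in edgeR's quasi-likelihood test in any of 8 comparisons, in which 0 of 13476 genes (0%) passed. At an unadjusted p under 0.05, KO against WT as a mean of both dysplasia classes gave 0 of 35 members (4.03% of all genes), KO against WT gave 1 among dysplastic lines (4.36%) and 0 among non-dysplastic lines (1.91%). Dysplastic against non-dysplastic lines gave 0 as a mean (5.91%), 2 among KO lines (7.54%) and 0 among WT lines (1.16%). The interaction of KO and dysplasia gave 0 (1.79%), and the ex vivo KO line 1270 against the in vivo KO line 650 gave 2 (7.07%). DESeq2 and limma-voom with each line as a correlated block did call genes after adjustment. For KO against WT, DESeq2 called 0.549% of all genes as a mean of both classes, 0.512% in dysplastic and 0.0445% in non-dysplastic lines, and limma-voom called 0.497%, 0.813% and 0.0395%. For dysplastic against non-dysplastic lines, DESeq2 called 1.14% as a mean, 1.46% in KO and 0.0297% in WT lines, and limma-voom called 1.14%, 2.01% and 0%. In the ex vivo comparison they called 1.42% (DESeq2) and 0.237% (limma-voom), and in the interaction 0%. Among the members they called none in the 8 comparisons except Egln3, by DESeq2 in the ex vivo comparison. Nor did any member separate the groups. No member had every KO line above every WT line (0.920% of all genes) or below (1.46%), and none had every dysplastic line above every non-dysplastic line (1.74%) or below (1.31%).

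**Figure D1:**
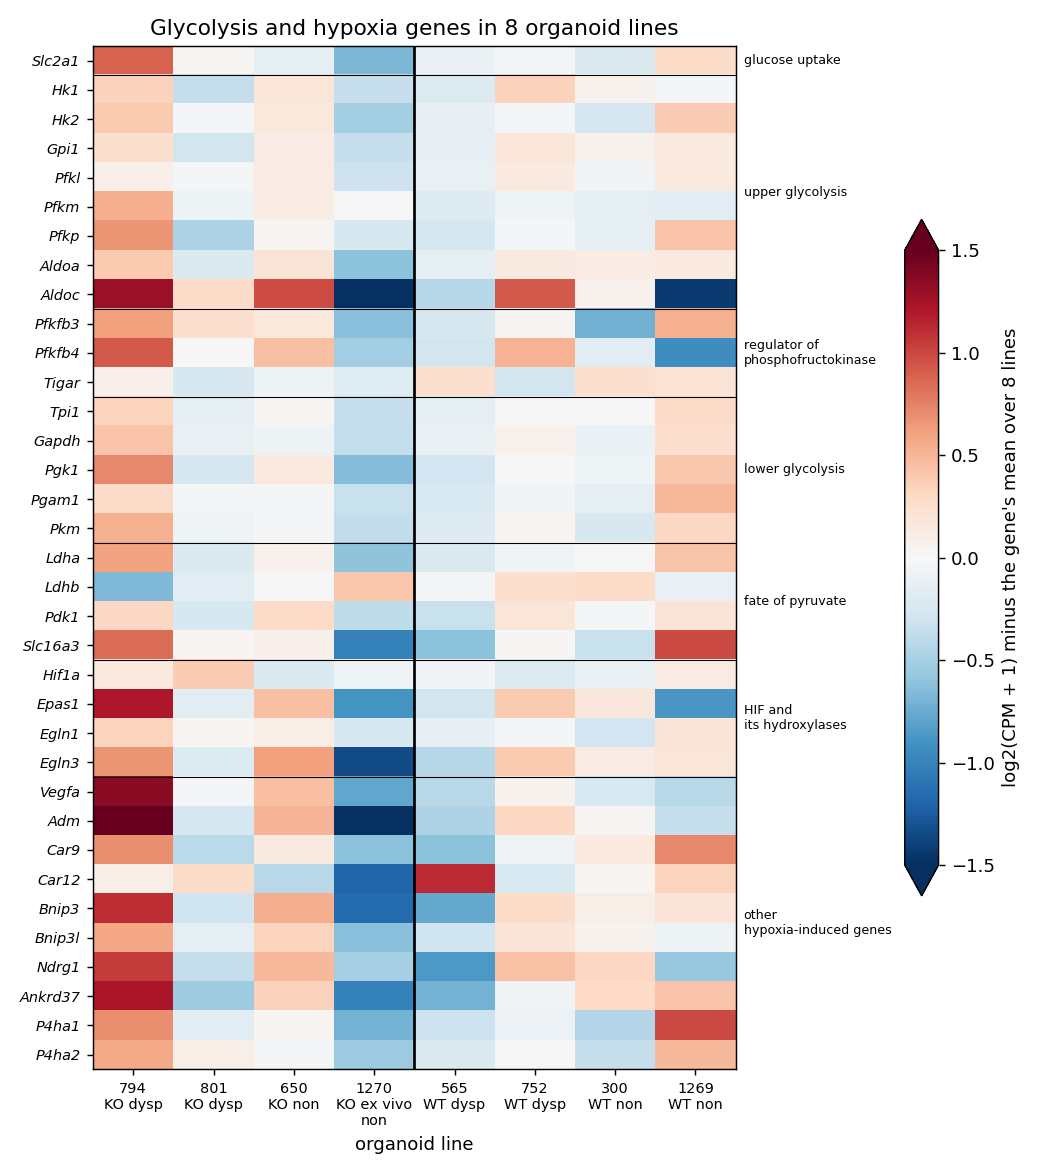
Level of the 35 tested members in each organoid line as log2(CPM + 1) minus the gene's mean over the 8 lines (colour), KO lines left of the black line and WT lines right of it, genes grouped by role (dysp, dysplastic; non, non-dysplastic). Line 794 was highest for 26 genes and line 1270 lowest for 24.

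Glucose enters through GLUT1, encoded by Slc2a1. Slc2a1 stood at 226, 157, 464 and 254 CPM in KO lines 650, 1270, 794 and 801, against 215, 303, 234 and 246 CPM in WT lines 300, 1269, 565 and 752. The high value belongs to line 794 alone, and the groups overlap. Among KO lines the dysplastic pair was higher than the non-dysplastic pair by 0.90 ± 0.33 (log2, SE), with an unadjusted p of 0.031 and an adjusted p of 0.63. Without line 794 the difference was 0.41. In that comparison 7.54% of all genes had an unadjusted p under 0.05. Within line 794 the libraries read 573, 466 and 287 CPM, and within line 801 they read 290, 226 and 203 CPM.

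Hexokinases trap glucose as glucose 6-phosphate. Hk2, the inducible hexokinase, stood at 152, 95, 179 and 133 CPM in KO lines 650, 1270, 794 and 801, against 114, 178, 125 and 135 CPM in the WT lines, in the order given for Slc2a1. KO lines averaged 140 ± 35.5 CPM and WT lines 138 ± 28 CPM (SD, n = 4 each), a difference far smaller than the spread. Hk1, the constitutive form, ranged from 192 CPM in line 801 to 313 CPM in lines 794 and 752. Per kilobase of transcript, Hk1 averaged 58.7 ± 11.4 CPM and Hk2 25.2 ± 5.35 CPM (SD, n = 8 lines), so Hk1 was the more abundant.

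Gpi1, the next enzyme, lay between 907 CPM in line 1270 and 1360 CPM in line 794. Of the phosphofructokinase subunits, which catalyse the committed step, the liver form Pfkl had the highest level per kilobase with 122 ± 12.7 CPM, then the platelet form Pfkp with 64.5 ± 18.1 CPM and the muscle form Pfkm with 11.8 ± 2.28 CPM (SD, n = 8 lines). Pfkl varied little over line sums, between 364 and 500 CPM, but its libraries ran from 191 CPM (1270-1) to 638 CPM (650-1). Pfkm had the smallest unadjusted p of the glycolytic enzymes for KO against WT, with a log2 fold change of 0.31 ± 0.16 (SE, unadjusted p = 0.084, adjusted p = 1), and 0.14 without line 794. Its level was 49.1 CPM in line 794 and 29.1 to 36.3 CPM in the other 7 lines. Aldolase A (Aldoa, 1540 ± 310 CPM per kilobase) far exceeded aldolase C (Aldoc, 45.5 ± 28.8 CPM per kilobase).

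Aldoc was one of the 5 members with the largest range over lines. It stood at 200, 30.7, 249 and 124 CPM in KO lines 650, 1270, 794 and 801, against 106, 36.9, 75.1 and 192 CPM in WT lines 300, 1269, 565 and 752. Low values occurred in 1 line of each genotype, both non-dysplastic. The ex vivo KO line 1270 was below the in vivo KO line 650 by 2.70 ± 1.00 (log2, SE; unadjusted p = 0.037, adjusted p = 0.69), where each arm is 1 line and the spread is taken from the other groups.

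The rate of phosphofructokinase is set by fructose 2,6-bisphosphate. Pfkfb3, which makes it, lay between 62.4 CPM in line 1270 and 148 CPM in line 794 among KO lines, and between 58 and 140 CPM among WT lines. Pfkfb4, a kinase and phosphatase of the same metabolite, was low, at 5.8 to 17.5 CPM in KO lines and 4.13 to 13.1 CPM in WT lines. Tigar, the p53-induced phosphatase, stood at 33.5, 30.9, 37.4 and 29.8 CPM in KO lines 650, 1270, 794 and 801, against 41.8, 40.7, 42 and 29.1 CPM in WT lines 300, 1269, 565 and 752. The 3 highest lines were WT, but WT line 752 was the lowest of the 8, so the groups overlap. The log2 fold change of Tigar for KO against WT was -0.22 ± 0.15 (SE, unadjusted p = 0.19, adjusted p = 1), and -0.07 without line 565. The overlap rests on WT line 752, since the other WT lines (40.7 to 42 CPM) lay above every KO line (29.8 to 37.4 CPM). The fold change without line 752 is not given here. Tigar was also steady within lines: line 752 read 30.6, 26.6 and 30.5 CPM in its libraries, and the other WT lines read 38.8 to 46.7 CPM.

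Most genes of lower glycolysis other than the enolases were abundant. Tpi1, triosephosphate isomerase, lay between 866 CPM in line 1270 and 1390 CPM in line 794. Pgk1, which makes the first ATP of the pathway, lay between 314 and 814 CPM in the same lines, and Pkm, pyruvate kinase M, between 2130 and 4000 CPM. Gapdh ranged from 761 CPM in line 1270 to 1310 CPM in line 794. Pgam1, the mutase, was lowest in line 1270 with 74.4 CPM and highest in WT line 1269 with 134 CPM. None of these separated KO from WT lines, and their log2 fold changes for KO against WT lay between -0.07 ± 0.18 for Pgam1 and 0.04 ± 0.21 for Pkm (SE).

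The enolases were nearly absent from the table. Eno1 had 0 to 7 counts per line, and Eno2, the neuronal form, had 1 to 13 counts per line. Of the 50-base windows of the Eno1 transcript, 72.2% also occur in transcripts of other genes, and 70.5% occur in Eno1b. How the counter treated such reads is not stated, so the Eno1 value is not taken as its level. The same limit bears on Gapdh (82.5% of windows shared), Pgk1 (68%), Bnip3 (62.4%), Pgam1 (41.5%), Pkm (34.4%), Ldhb (27%), Gpi1 (25.3%) and Bnip3l (25.1%). In each of the other 28 members, at most 17.1% of windows were shared.

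Ldha, which turns pyruvate into lactate, stood at 2100, 1320, 3040 and 1730 CPM in KO lines 650, 1270, 794 and 801, against 1990, 2690, 1730 and 1930 CPM in WT lines 300, 1269, 565 and 752. Line 794 was highest and line 1270 lowest, and both are KO. KO lines averaged 2050 ± 738 CPM and WT lines 2090 ± 416 CPM (SD, n = 4 each). Ldhb, whose product favours the reverse reaction, was much lower per kilobase, with 17.4 ± 3.92 CPM against 1140 ± 305 CPM for Ldha (SD, n = 8 lines). Ldhb ran the other way over the lines, with 22.3, 29.8, 13.6 and 19.8 CPM in the KO lines and 27.1, 20.5, 21.8 and 26.7 CPM in the WT lines, in the same order. It was lowest in line 794 and highest in line 1270, and among KO lines the dysplastic pair was below the non-dysplastic pair, with a log2 fold change of -0.64 ± 0.27 (SE; unadjusted p = 0.051, adjusted p = 0.67), and -0.40 without line 794.

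Pdk1, a mitochondrial kinase that inhibits pyruvate dehydrogenase and so the conversion of pyruvate to acetyl-CoA, lay between 181 CPM in line 1270 and 293 CPM in line 794. Slc16a3, the lactate exporter MCT4, whose promoter is printed above, stood at 214, 99.9, 364 and 207 CPM in KO lines 650, 1270, 794 and 801, against 160, 405, 132 and 205 CPM in WT lines 300, 1269, 565 and 752. Its highest line was WT line 1269, next to KO line 794.

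Hif1a mRNA stood at 62.8, 70, 81 and 95.9 CPM in KO lines 650, 1270, 794 and 801, against 67.5, 80.2, 71 and 63.2 CPM in WT lines 300, 1269, 565 and 752. Both dysplastic KO lines lay above the other 6 lines. In dysplastic lines Hif1a was higher in KO than in WT by 0.40 ± 0.17 (log2, SE; unadjusted p = 0.048, adjusted p = 1), and in KO lines it was higher in the dysplastic pair by 0.41 ± 0.17 (unadjusted p = 0.042, adjusted p = 0.65). The 2 comparisons share lines 794 and 801. Hif1a was lower in the third library of lines 794 (53.1 CPM, against 91.2 and 89 CPM in its sisters) and 801 (50.3 CPM, against 108 and 99.9 CPM). Epas1, which encodes HIF-2 alpha, was lower per kilobase, with 5.9 ± 3.15 CPM against 15.7 ± 2.37 CPM for Hif1a (SD, n = 8 lines), and ranged from 15.1 CPM in line 1270 to 68.6 CPM in line 794.

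Of the prolyl hydroxylases that mark HIF alpha, Egln1 (PHD2) lay between 83.6 and 129 CPM over lines. Its libraries ran from 51.7 CPM (1270-1) to 163 CPM (794-2). Egln3 (PHD3), itself a HIF target, stood at 1110, 285, 1150 and 630 CPM in KO lines 650, 1270, 794 and 801, against 791, 820, 539 and 950 CPM in WT lines 300, 1269, 565 and 752. Line 1270 was the lowest, and no other line was below 539 CPM. The ex vivo KO line 1270 was below the in vivo KO line 650 by 1.96 ± 0.56 (log2, SE; unadjusted p = 0.013, adjusted p = 0.67). DESeq2 called this difference at -1.95 (log2), its adjusted p being 0.024. Libraries 1270-1 and 1270-2 read 87.3 and 454 CPM, and without library 1270-1 edgeR gave a difference of -1.33 (log2), at an adjusted p of 0.45. DESeq2 was not run without that library.

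Among the other hypoxia-induced genes, Vegfa, the angiogenic growth factor, stood at 218, 91.9, 408 and 157 CPM in KO lines 650, 1270, 794 and 801, against 135, 119, 119 and 165 CPM in WT lines 300, 1269, 565 and 752. The spread was wide in KO lines (218 ± 136 CPM) and narrow in WT lines (135 ± 21.6 CPM; SD, n = 4 each), and the difference of 0.63 ± 0.38 (log2, SE) did not pass (adjusted p = 1). Adm, the vasodilator peptide adrenomedullin, had the largest range of all members. It stood at 61.7, 13.1, 159 and 35.9 CPM in the KO lines, against 43.5, 33.2, 30.8 and 53.3 CPM in the WT lines, in the same order. Both extremes were KO lines.

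Bnip3, a mitophagy receptor, stood at 249, 76.1, 370 and 139 CPM in KO lines 650, 1270, 794 and 801, against 182, 195, 100 and 207 CPM in WT lines 300, 1269, 565 and 752. Ankrd37, an ankyrin repeat protein gene known as a HIF target, followed the same order at its extremes, with 70.9, 27, 131 and 37.9 CPM in the KO lines, against 68.3, 75, 33.5 and 53.6 CPM in the WT lines. For both, line 794 was highest and line 1270 lowest. Car12, a carbonic anhydrase, did not follow them. It stood at 7.11, 3.69, 10.6 and 12.1 CPM in the KO lines, against 10, 12.6, 22.4 and 8.25 CPM in the WT lines, in the same order. Its highest line was WT line 565, and its log2 fold change for KO against WT was -0.75 ± 0.36 (SE, unadjusted p = 0.079, adjusted p = 1), and -0.30 without line 565.

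The other carbonic anhydrase, Car9, ranged from 192 CPM in lines 1270 and 565 to 488 CPM in line 1269. Bnip3l, which encodes the mitophagy receptor NIX, lay between 93.8 and 218 CPM in lines 1270 and 794. Ndrg1, a stress-induced gene, lay between 372 CPM in WT line 565 and 1400 CPM in KO line 794. P4ha1 and P4ha2, subunits of the collagen prolyl hydroxylase, were lowest in line 1270 with 73.8 and 30.4 CPM. P4ha1 was highest in WT line 1269 with 242 CPM and P4ha2 in KO line 794 with 66.9 CPM.

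Single lines stood out across roles. Line 794 was the highest of the 8 lines for 26 of 35 members, a position it held for 22.0% of all genes. Line 1270 was the lowest for 24 of 35, against 18.1% of all genes. The median deviation of members from their mean over lines was 0.58 in line 794 and -0.55 in line 1270 on the log2 scale, and between -0.23 and 0.20 in the other 6 lines. Line 794 was not highest for Car9, Car12, Hif1a, Ldhb, P4ha1, Pfkl, Pgam1, Slc16a3 and Tigar.

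**Figure D2:**
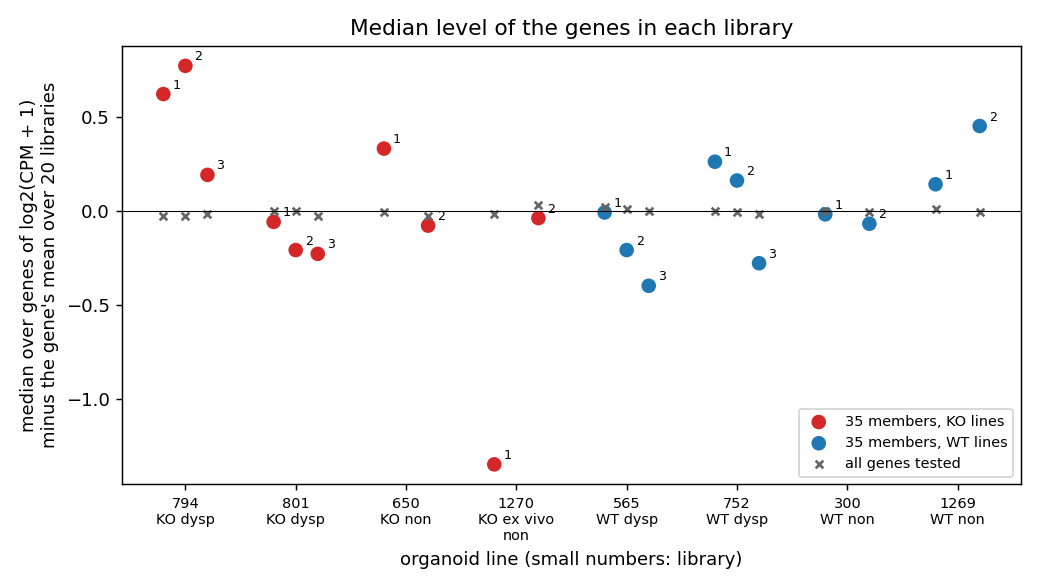
Median over the 35 members (circles; KO lines red, WT lines blue) and over all genes tested (crosses) of log2(CPM + 1) minus the gene's mean over 20 libraries, for each library, grouped by line. Library 1270-1 lies at -1.35 and its sister 1270-2 at -0.04, and the libraries of line 794 lie at 0.62, 0.77 and 0.19.

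The libraries of line 1270 were unlike each other. The labels give both the same line number but do not say whether they come from one culture. Each value of line 1270 above therefore combines unlike libraries, and whether both are the same line was not tested. Library 1270-1 had a member median of -1.35, against -0.04 in library 1270-2, and was the lowest of the 20 libraries for 29 of 35 members. The share of all genes for that count is not given here. In library 1270-1, 26 of 35 members were more than 2-fold below library 1270-2, against 2.32% of all genes, and 0 were more than 2-fold above, against 2.72%. Slc16a3 read 5.42 CPM in library 1270-1 and 179 CPM in library 1270-2. P4ha1 read 12.6 and 126 CPM, Bnip3 13.1 and 129 CPM, and Ankrd37 5.12 and 45.5 CPM in these libraries. Ldha read 618 and 1930 CPM, and Slc2a1 read 89.3 and 218 CPM. The 9 members outside this group were Bnip3l, Car12, Epas1, Hif1a, Hk1, Ldhb, Pfkfb4, Pfkm and Tigar. Hif1a itself read 79.9 CPM in library 1270-1 and 64.7 CPM in library 1270-2, and Ldhb read 31.4 and 29.7 CPM. Without library 1270-1, line 1270 was lowest for 7 of 35 members and its median deviation was -0.19. With all libraries in, line 1270 was lowest for 18.1% of all genes. The share without library 1270-1 is not given here, so the count of 7 has no matching share beside it. Without that library line 794 was still highest for 26 of 35, against 22.0% of all genes with all libraries in.

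**Figure D3:**
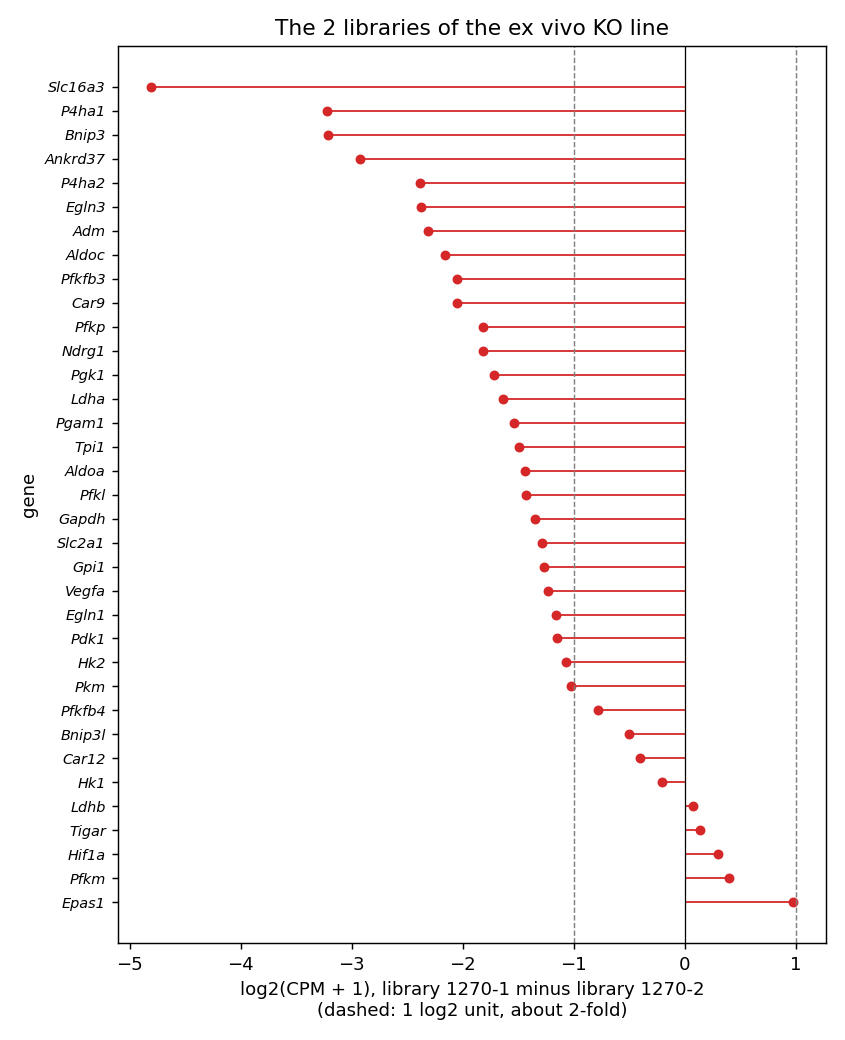
Difference in log2(CPM + 1) between library 1270-1 and library 1270-2 for each of the 35 members, ordered by size, with dashed lines at 1 log2 unit on either side of 0. Slc16a3 differs most, by -4.81, and Ldhb, at 0.08, and Tigar, at 0.14, lie near 0.

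Some gastric differentiation markers moved with these libraries. Library 1270-1 had 423 CPM of Muc5ac and 949 CPM of Gkn2, genes of surface mucous cells, against 1.85 and 6.43 CPM in library 1270-2. The summed 10 gastric markers read 4430 CPM in library 1270-1 and 405 CPM in library 1270-2. Line 794, where the members were high, also had high sums, at 3250, 5170 and 9470 CPM in its libraries, while the other 15 libraries lay between 191 and 2750 CPM. Gkn1, another surface mucous gene, made up most of these sums in line 794, with 2450, 3050 and 6760 CPM. Gif, which encodes intrinsic factor, was lower in line 794 than in any other library, with 4.49, 1.77 and 1.71 CPM, and Pgc, the pepsinogen C gene, read 50.1, 57.9 and 35 CPM there, within the range of the others. In library 1270-1, in contrast, Gif read 1190 CPM and Pgc 649 CPM, the highest of the 20 libraries, so the list did not move as a set in line 794. Epithelial marker sums were 11800 CPM in library 1270-1 and 10600 CPM in library 1270-2. Trp53 was low in both. The part of these markers in the members' levels was not tested.

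The interaction asks whether the KO effect differs between the dysplasia classes. In dysplastic lines 30 of 35 members were higher in KO than in WT, with a median log2 fold change of 0.38 (0.01 over all genes). In non-dysplastic lines 7 of 35 were higher in KO, with a median of -0.22 (-0.02 over all genes). The median interaction of the members was 0.51, against 0.04 over all genes, and 32 of 35 were positive, but no member passed the test. The nearest were Hif1a with 0.55 ± 0.23 (unadjusted p = 0.052), Slc2a1 with 1.01 ± 0.47 (unadjusted p = 0.069), Slc16a3 with 1.61 ± 0.79 (unadjusted p = 0.084) and Car9 with 1.22 ± 0.63 (unadjusted p = 0.094; SE, adjusted p = 1 for each). These medians rest on single lines. Without line 794 the median for KO against WT in dysplastic lines was -0.10 and that of the interaction 0.10. Without line 1270 the median for KO against WT in non-dysplastic lines was 0.04 and that of the interaction 0.20, and without library 1270-1 alone they were -0.06 and 0.35. Averaged over both classes the median for KO against WT was 0.03, with 21 members higher and 14 lower in KO.

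**Figure D4:**
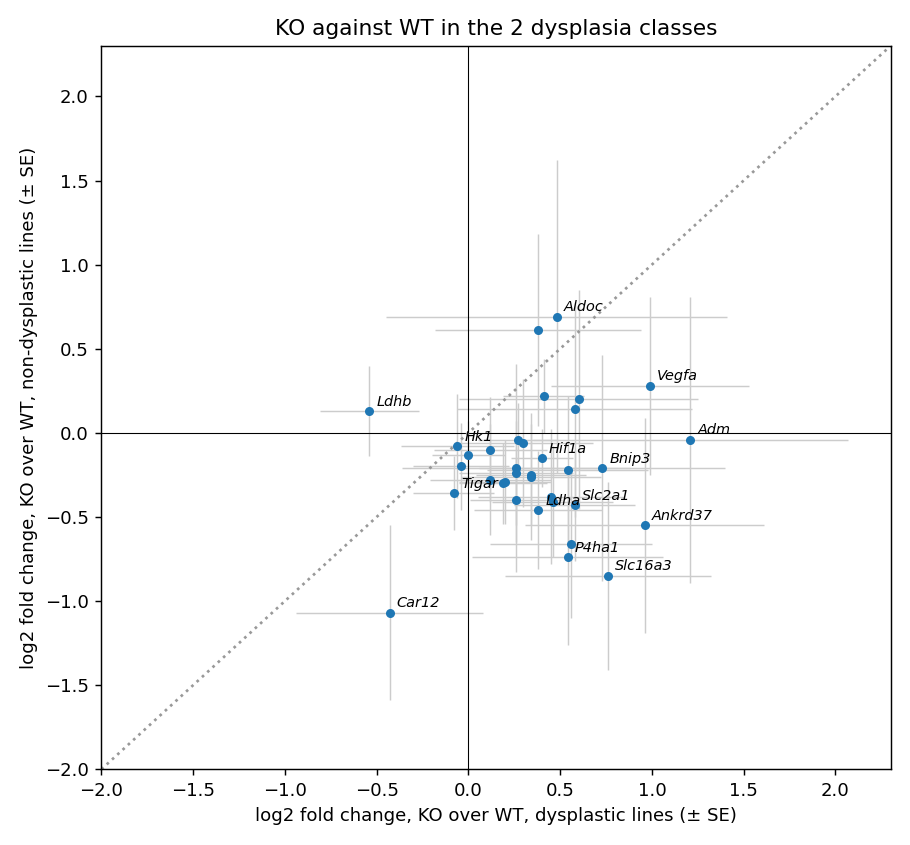
Log2 fold change of KO over WT in dysplastic lines (horizontal) and in non-dysplastic lines (vertical) for the 35 members, with SE bars in grey and a dotted line of equality. Most genes lie right of 0 and below 0, and the bars of most cross at least 1 of the axes.

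Dysplasia showed the same dependence on lines. Among KO lines 34 of 35 members were higher in the dysplastic pair, with a median log2 fold change of 0.43 (0.02 over all genes), and Ldhb was the exception. Without line 794 that median was -0.05, and without line 650 it was 0.87. Among WT lines 9 of 35 were higher in the dysplastic pair, with a median of -0.12 (-0.03 over all genes). Without line 1269 that median was 0.04, without line 565 it was 0.01, and without line 752 it was -0.27. The 2 dysplastic KO lines were unlike each other: Ldha read 3040 CPM in line 794 and 1730 CPM in line 801, Vegfa 408 and 157 CPM, and Adm 159 and 35.9 CPM. Line 801 was highest of the 8 lines only for Hif1a.

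For the ex vivo against the in vivo non-dysplastic KO line, 33 of 35 members were lower in line 1270 than in line 650, with a median log2 fold change of -0.68 (-0.02 over all genes). Without library 1270-1 it was -0.26.

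With all libraries pooled, libraries of one line differed about as much as lines did. The median SD of a member was 0.45 among the libraries of a line and 0.45 among line means (log2), against 0.29 and 0.23 over all genes. The value within lines pools all lines and includes the unlike libraries of line 1270. For members far apart in that pair, such as Slc16a3 (-4.81, SD 1.03 within lines), the pair can set much of it. The spread within lines exceeded that among line means for 17 of 35 members and for 60.8% of all genes. Besides library 1270-1, 6 libraries stood apart from their sisters over many genes, namely 650-2, 794-3, 801-3, 300-2, 565-3 and 752-3, the last-numbered library of each of 6 lines. Lines 650 and 300 have only a pair of libraries, and a pair alone does not tell which library stands apart. In the 6 libraries, 14 of 35 members were below their sister libraries in all 6 cases (27.0% of all genes), and 1, Ldhb, was above them in all 6 (23.7%). Hk2 read 92.7 CPM in library 794-3, against 180 and 239 CPM in 794-1 and 794-2. Bnip3 went the other way, with 701 CPM in library 794-3, against 241 and 275 CPM.

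Longer members were lower in these libraries. The Spearman coefficient across the 35 members between the length of the longest CCDS transcript and the mean difference from sister libraries was -0.56, a description across genes, which are not independent replicates. The 14 members that were lower in all 6 libraries had a median length of 3662 bases, against 2662 bases for the other 21. Epas1 (-1.11), Hk2 (-1.08) and Hk1 (-1.08) differed most downward, and Ankrd37 (0.88) and Bnip3 (0.75) most upward, on the log2 scale. Line 794 was highest for 23 members and line 1270 lowest for 28 when the 6 libraries were left out. With all libraries in, these positions held for 22.0% and 18.1% of all genes, and shares without the 6 libraries are not given here.

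**Figure D5:**
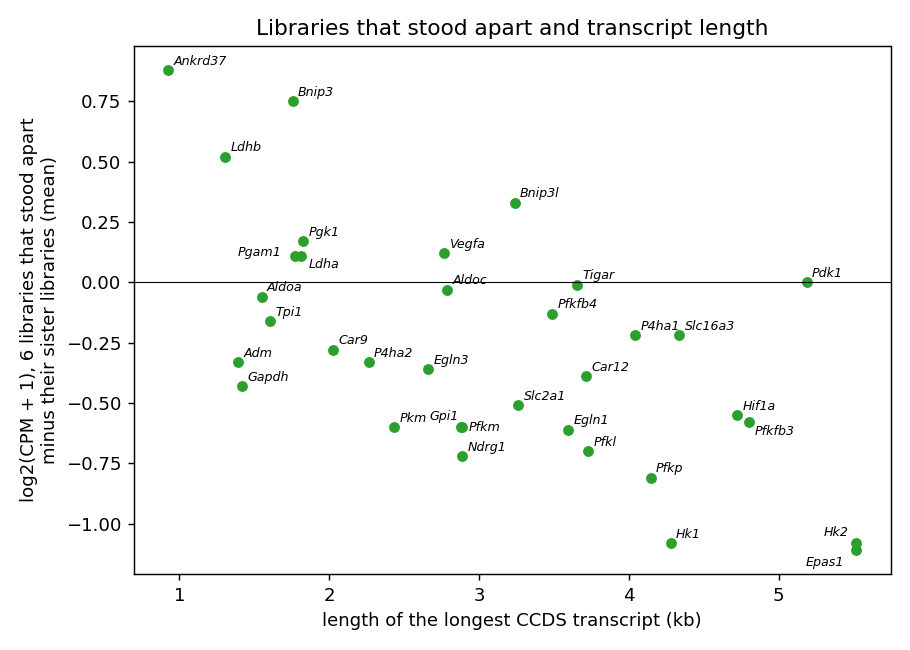
Mean difference in log2(CPM + 1) between the 6 libraries that stood apart and their sister libraries (vertical) against the length of each member's longest CCDS transcript in kilobases (horizontal). Hk1, Hk2 and Epas1 lie lowest, and Ankrd37, the shortest, lies highest.

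Over the 8 lines the members varied with each other more than genes at large. The median pairwise Pearson r of log2(CPM + 1) was 0.69 among the 35 members and 0 among 1348 genes sampled at even steps from all genes tested, without excluding members. Taken against Ldha, the highest coefficients belonged to Tpi1 (1), Pgk1 (0.99), Gapdh (0.95), Car9 (0.94) and Ankrd37 (0.94), and the lowest to Ldhb (-0.75), Hif1a (0.19) and Pfkfb4 (0.33). Over the 20 libraries in place of the 8 lines, the coefficients with Ldha were 0.99 for Pgk1, 0.92 for Car9, 0.79 for Slc2a1, 0.79 for Gapdh, 0.77 for Vegfa and 0.45 for Hk2. Over the 16 libraries left without line 794 and library 1270-1, they were 0.96 for Pgk1, 0.86 for Car9, 0.38 for Slc2a1, 0.44 for Gapdh, 0.15 for Vegfa and 0.20 for Hk2. For Hk2 (0.92 over lines) the change from lines to libraries was thus larger than that from leaving out these 4 libraries. For Ldhb (-0.75 over lines) the coefficient was -0.43 over the 20 libraries and 0.18 without these 4, so its inverse course did not hold without them. The libraries of a line share their source, and all share the scaling, so these coefficients are descriptions.

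Further genes of the pathway behaved in part like the members. Of 41 tested genes of a further HIF list, 12 were more than 2-fold below library 1270-2 in library 1270-1 and 2 above, against 2.32% and 2.72% of all genes. They included Plod2, a collagen lysyl hydroxylase (1.49 and 43.8 CPM in 1270-1 and 1270-2), Ak4, a mitochondrial adenylate kinase (18.3 and 114 CPM), Ero1l, an oxidase of protein folding (107 and 639 CPM), and Ddit4, an inhibitor of mTORC1 (54.8 and 226 CPM). Line 794 was highest for 22 of the 41 (22.0% of all genes) and line 1270 lowest for 25 (18.1%). In a list of 29 further glycolysis, lactate and pyruvate genes, 2 were more than 2-fold lower in library 1270-1 and 1 higher, and of 8 pentose phosphate genes none differed that much.

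No gene of these lists passed the adjusted threshold in edgeR's main fit, in which 0 of 13476 genes (0%) passed in any comparison. Calls by DESeq2 and limma-voom are not given here for these lists. For KO against WT in dysplastic lines, 32 of 41 further HIF genes were higher in KO (78%, against 52.5% of all genes; median log2 fold change 0.39), and 3 had an unadjusted p under 0.05, against 4.36% of all genes. Without line 794, 22 of 41 were higher (53.7%, against 50.4% of all genes), with a median of 0.03. In non-dysplastic lines 18 of the 41 were higher in KO (43.9%, against 45.5% of all genes), with a median of -0.09. Stc1, the hormone stanniocalcin, stood at 19.8 and 5.22 CPM in KO lines 794 and 801, against 1.25 and 1.76 CPM in WT lines 565 and 752, with a log2 fold change of 3.05 ± 0.87 (SE, unadjusted p = 0.010, adjusted p = 1). Tmem45a stood at 6.63 and 3 CPM in the same KO lines, against 0.378 and 1.48 CPM in the same WT lines. The glucose transporter GLUT3, encoded by Slc2a3, was scarce, at 0.347, 0.324, 3.46 and 0.75 CPM in KO lines 650, 1270, 794 and 801, against 0.143, 0.159, 0.261 and 0.0274 CPM in WT lines 300, 1269, 565 and 752. Every KO line lay above every WT line for Slc2a3, with a log2 fold change of 2.48 ± 0.78 (SE, unadjusted p = 0.016, adjusted p = 1), and these levels rest on few counts. Its list, the further glycolysis genes, had 9 of 29 higher in KO than in WT (31%, against 48.5% of all genes), with a median of -0.1. Pck2 of that list was also higher in every KO line, at 86.4 to 172 CPM against 50.8 to 82.3 CPM. The lowest KO value, that of line 1270, combines 40.9 CPM in library 1270-1 and 126 CPM in library 1270-2. Library 1270-1 alone thus lay below every WT line. The log2 fold change of Pck2 was 0.66 ± 0.2 (SE, unadjusted p = 0.013 in edgeR's test), and it did not pass after adjustment.

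The pentose phosphate pathway branches from glucose 6-phosphate. Of its 8 genes, 1 was higher in KO than in WT lines (12.5%, against 48.5% of all genes), the median log2 fold change was -0.20 (-0.01 over all genes), and 2 had an unadjusted p under 0.05 (4.03% of all genes). Taldo1, transaldolase, stood at 340, 297, 341 and 267 CPM in KO lines 650, 1270, 794 and 801, against 448, 388, 391 and 369 CPM in WT lines 300, 1269, 565 and 752, with a log2 fold change of -0.36 ± 0.13 (SE, unadjusted p = 0.030, adjusted p = 1). Every KO line was below every WT line. Pgd, phosphogluconate dehydrogenase, differed by -0.35 ± 0.12 (unadjusted p = 0.023, adjusted p = 1). Of 14 p53-linked metabolic genes in the table, 6 were higher in KO (42.9%, close to the 48.5% of all genes). The median log2 fold change of the 14 was -0.28 (-0.01 over all genes). With an unadjusted p under 0.05 there were 3 (4.03% of all genes), which were Mdm2, the p53 ubiquitin ligase (-1.11 ± 0.28), Sesn2, a stress sensor (-0.85 ± 0.24), and Aldh4a1, a proline pathway dehydrogenase (-0.61 ± 0.18; log2 fold change, SE). Tigar, at -0.22 ± 0.15, differed by less than these.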

How the data were processed

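Per the labels, RNA was collected with an RNeasy kit and libraries were made with a Kapa mRNA kit from 100 ng of total RNA. The submitters' processing notes name bcl2fastq, STAR 2.5 and the build mm9. Annotation, gene counter and strand setting: not given in the sources used here. The authors deposited raw counts per gene symbol. No library pair agreed within sampling noise (smallest chi-square per degree of freedom 6.11).

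Counts were summed per line, since the libraries of a title number share all labels. They were filtered with filterByExpr, scaled by TMM and fitted with edgeR 4.0.16 (robust quasi-likelihood, R 4.3.3) with 1 mean per combination of genotype and dysplasia (4 residual degrees of freedom), with Benjamini-Hochberg adjustment over all genes and a threshold of 0.05. The ex vivo comparison used 5 means, which takes the spread of a single line from the other groups. An SE is the log2 fold change divided by the square root of F. Log2 levels use a pseudocount of 1. Lengths and shared 50-base windows come from GENCODE M21 (GRCm38), another build than that of the counts. Alternatives were other scalings, DESeq2 1.42.0, limma 3.58.1 (voom), no filter, and leaving out lines or libraries, of which leaving out library 1270-1 was chosen after seeing the data. The fits were tested on simulated data.

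Per-line values are given for members with an unadjusted p under 0.05 in a comparison, those called by any planned fit, those with no overlap of groups, the 5 with the largest range, and Slc2a1, Hk2, Ldha, Hif1a, Vegfa and Tigar. Values of Ldhb, Slc16a3, P4ha1, Stc1, Tmem45a, Slc2a3 and Taldo1 are given line by line or library by library after being seen. The members, the lists and the 6 libraries said to stand apart were chosen with earlier results of these data known.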

Additional observations from a re-analysis of the deposited data

Results flagged for a closer look

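In groups of 4 lines, a line that lay far outside the range of the other 3 was looked for in each of 35 members and 4 groups, and 10 of 140 were found. Chance alone gives about 1 in 20 for a single group. The 140 are not independent, since each line lies in more than 1 group and members vary together (median pairwise r 0.69). No share over all genes is given, so the count describes these lines and is not a result about the members. Of the 10, 5 were high values of line 794 among the dysplastic lines. They were Slc2a1 with 464 CPM (the others 234 to 254), Pfkm with 49.1 CPM (29.1 to 31.9), Ldha with 3040 CPM (1730 to 1930), Vegfa with 408 CPM (119 to 165) and P4ha1 with 198 CPM (97.1 to 114). Line 1270 was low among the non-dysplastic lines for Aldoa with 1530 CPM (2530 to 2690) and for Ankrd37 with 27 CPM (68.3 to 75). Among the WT lines, line 752 was low for Tigar with 29.1 CPM (40.7 to 42), line 565 was low for Aldoa with 2110 CPM (2530 to 2590), and line 1269 was high for P4ha1 with 242 CPM (89 to 114).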

How the results depend on the processing

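Of 360 log2 fold changes of named members under the alternatives, none changed sign, 17 moved towards 0 and 7 away from it by over 1.5 times. Apart from Tigar, the members and comparisons among these were those with the smallest unadjusted p in edgeR's main fit. Large changes picked from the same data tend to keep their sign, so this count does not measure the stability of all members. With all lines in, edgeR called no gene in the main fit. In the ex vivo comparison it called 1 gene with no filter on low counts and 1 without library 1270-1. Staying under its threshold therefore says little of stability. DESeq2 called up to 197 genes and limma-voom up to 255 (dysplastic against non-dysplastic KO lines in both). The number of members called stayed at 0 except in the ex vivo comparison with DESeq2, which called 1 (Egln3). Median log2 fold changes of the members moved with single lines. Leaving out 1 line in turn, they ran from -0.62 (without line 650) to 0.04 (without line 1270) for KO against WT in non-dysplastic lines, from -0.10 (without line 794) to 0.68 (without line 801) for KO against WT in dysplastic lines, from -0.05 (without line 794) to 0.87 (without line 650) for dysplastic against non-dysplastic KO lines, from -0.27 (without line 752) to 0.04 (without line 1269) for dysplastic against non-dysplastic WT lines, and from 0.10 (without line 794) to 0.92 (without line 650) for the interaction. Slc16a3 in the interaction was 0.73 without line 1269, Car9 0.57 and Slc2a1 0.51 without line 794, and Hif1a 0.36 without line 1269. The ex vivo comparison gave no value without either of its lines. Its median of -0.68 became -0.26 in edgeR without library 1270-1, and -1.06 in limma-voom with a term for the 6 libraries that stood apart. That limma-voom fit also differs in tool and uses libraries in place of line sums. The change to -1.06 is therefore not that of the term alone. The number of members lowest in line 1270 became 7 without library 1270-1. With a replicate block in limma-voom the median interaction was 0.62 and no member was called. Of 62 library pairs with the same number in different lines, 32 had a correlation over 0.1, from -0.84 to 0.82, so the numbers did not pair the libraries throughout, although the 6 libraries that stood apart are the last-numbered of their lines. With 1 or 2 lines per group, 1 line can set a group's value, and libraries of a line differ by 0.45 (median SD of the members, log2). That SD includes the unlike libraries of line 1270.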

Other observations

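Angptl4 and Pgf, secreted products of the further HIF list, had low levels in the ex vivo KO line 1270, which also differs in sex from the in vivo KO line 650. Angptl4, an inhibitor of lipoprotein lipase, stood at 2.2 CPM in line 1270 and 24.5 CPM in the in vivo KO line 650. Pgf, placental growth factor, stood at 0.291 and 5.55 CPM in these lines. Their log2 fold changes were -3.47 ± 0.49 and -4.23 ± 0.72 (SE), with adjusted p of 0.42 and 0.45 in edgeR's test. Without library 1270-1 they were -5.39 ± 0.58 and -4.96 ± 0.79 (adjusted p of 0.18 and 0.24). Of the 41 tested genes of that list, 8 were higher in line 1270 (19.5%, against 48.2% of all genes), and 11 had an unadjusted p under 0.05 (7.07% of all genes). Without library 1270-1, 11 were higher (26.8%, against 46.7% of all genes) and 7 had an unadjusted p under 0.05 (17.1%, against 11.3% of all genes), with a median log2 fold change of -0.37 in place of -0.83.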
